A study of Mus musculus with 12 samples.

Results

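Rab GTPases were followed in interscapular brown adipose tissue of mice kept in the cold and of control mice. The members were selected by gene symbol: every protein-coding gene of the GENCODE M21 annotation named Rab with a number and an optional letter, which gave 58 genes of the 54356 genes measured. The family was put forward with the cold against ctrl values of these animals known, and Rab37 and Rab3a led that choice. Their values are therefore a description and carry no test. The other members carry p-values from a fit over all genes, and counts of members stand beside the share of all genes, with nothing read from the family as a group.

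Rab proteins are small GTPases that mark the membranes of the secretory and endocytic routes. An exchange factor loads a Rab with GTP, the GTP-bound form recruits effectors that move, tether or fuse vesicles, and a GTPase-activating protein returns it to the GDP-bound form. A dissociation inhibitor then carries the lipid-anchored protein back through the cytosol. In fat cells this cycle is known for insulin-stimulated delivery of the glucose transporter GLUT4, for release of adipokines and for contacts of lipid droplets with other organelles.

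The animals were 12 male wild-type C57BL/6N mice aged 20 weeks, with 6 labelled ctrl and 6 labelled cold, and each library came from 1 mouse. Polyadenylated RNA was read as paired 50 nt reads from strand-specific libraries. The treatment text, individual housing at 4 °C for 24 h, is attached to the libraries of both groups, so the ctrl temperature is known only from the colony setting of 22 to 24 °C. The deposited texts also disagree with the labels in 2 places: the design text counts 3 mice, and the extraction text names another fat depot.

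Libraries held 15984900 to 31424000 estimated reads. The labelled tissue was visible in every library, where 7 brown adipocyte markers summed to 21560 to 29160 counts per 1000000 library-scaled reads (CPM) in ctrl and to 26620 to 35530 CPM in cold. Ucp1, the uncoupling protein of brown fat, stood at 8629 ± 1588 CPM (SD, n = 6) in ctrl and at 10070 ± 769 CPM (SD, n = 6) in cold (adjusted p = 0.135). Of the 7 markers, Cidea, Cidec and Fabp4 were higher in cold and Adipoq was lower (edgeR quasi-likelihood test, adjusted p under 0.05). Plin1 and Lipe, like Ucp1, did not pass that test. The library of ctrl mouse 2 stood apart, with 9.94% of its reads on the transcript Gm42418 against at most 1.40% in any other library. Skeletal muscle markers summed to 110 to 1465 CPM in ctrl and to 155 to 4503 CPM in cold, with the highest value in 1 cold animal. Animals with mouse numbers under 8 had higher scores on the second principal component, which held 17.9% of the variance, than those of the same group with numbers over 8; the labels do not say what the number marks. In whole tissue, fewer cells of a type and less RNA per cell cannot be told apart.

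The GTP-binding loop is the stretch by which such proteins grip their nucleotide. Its pattern was found in the first 120 residues encoded by the main transcript of 54 members, and its bases are shown for the members on which the results turn. The pattern was not found in the products used for Rab11b, Rab40b, Rab40c and Rab44. For Rab11b this was the product of Rab11b-203, with 193 residues, and other transcripts were not searched. The bases come from the GENCODE M21 coding sequence of the transcript with the most reads, on GRCm38. Capitals mark the codons of the fixed residues, a glycine at the start and glycine, lysine and serine or threonine at the end.

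Rab37, residues 36 to 43: GGAgactcgggcgtcGGCAAAACC
Rab3a, residues 29 to 36: GGGaacagcagcgtgGGCAAAACC
Rab3d, residues 29 to 36: GGGaacagcagcgtgGGCAAGACA
Rab21, residues 24 to 31: GGGgaaggctgcgtgGGGAAGACG

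Over these 24 bases Rab3a and Rab3d differed at 2 positions that left the encoded residues the same, and Rab3a and Rab37 differed at 7 positions. Along the whole protein, 77.1% of 218 aligned residues were identical between Rab3a and Rab3d. Rab37 and Rab26, a fellow granule Rab, shared 61.0% of 159 aligned residues. The Rab26 transcript used, Rab26-202, encodes 197 residues and was the only 1 without a cysteine in the last 5, so the value belongs to that product. Encoded proteins were 193 to 973 residues long with a median of 214.5, the shortest being that of the Rab11b transcript used and the longest that of Rab44. The carboxyl ends, where cysteines take the lipid anchor, closed with a cysteine pair in 15 members and with cysteines around a middle residue in 20.

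Of the 58 members, 43 were abundant enough to be tested and 42 of these exceeded the filter on low values (0.527 CPM) in all 12 libraries, so none of the 43 entered through 1 group alone. In the cold group 18 members were higher and 7 lower (edgeR quasi-likelihood test, Benjamini-Hochberg adjusted p under 0.05 over all genes), and 18 did not pass the test. The 25 calls were 58.1% of the tested members, beside 31.6% of all 13876 genes tested. Leaving aside Rab37 and Rab3a, whose values led the choice, 23 of 41 members (56.1%) were called, 16 higher and 7 lower, and 9 had groups that did not overlap, 7 higher and 2 lower. By direction, the background was 16.2% of all genes higher and 15.4% lower. Calls are more frequent among abundant genes, and at a mean of at least 10 CPM 17 of 27 members were called, beside 37.3% of the 8004 genes of that abundance. No ctrl animal reached into the cold range for 11 members, 9 of them higher and 2 lower, a separation found for 16.3% of all genes tested. The median log2 fold change of the tested members was 0.15 and their range ran from -0.93 to 2.49, against a median of -0.01 over all genes. Most called differences were small: only Rab37, Rab3a and Rab20 differed by at least 2-fold. These are 3 of the 43 tested members, beside 6.17% of all genes tested, and Rab37 and Rab3a led the choice.

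**Figure D1:**
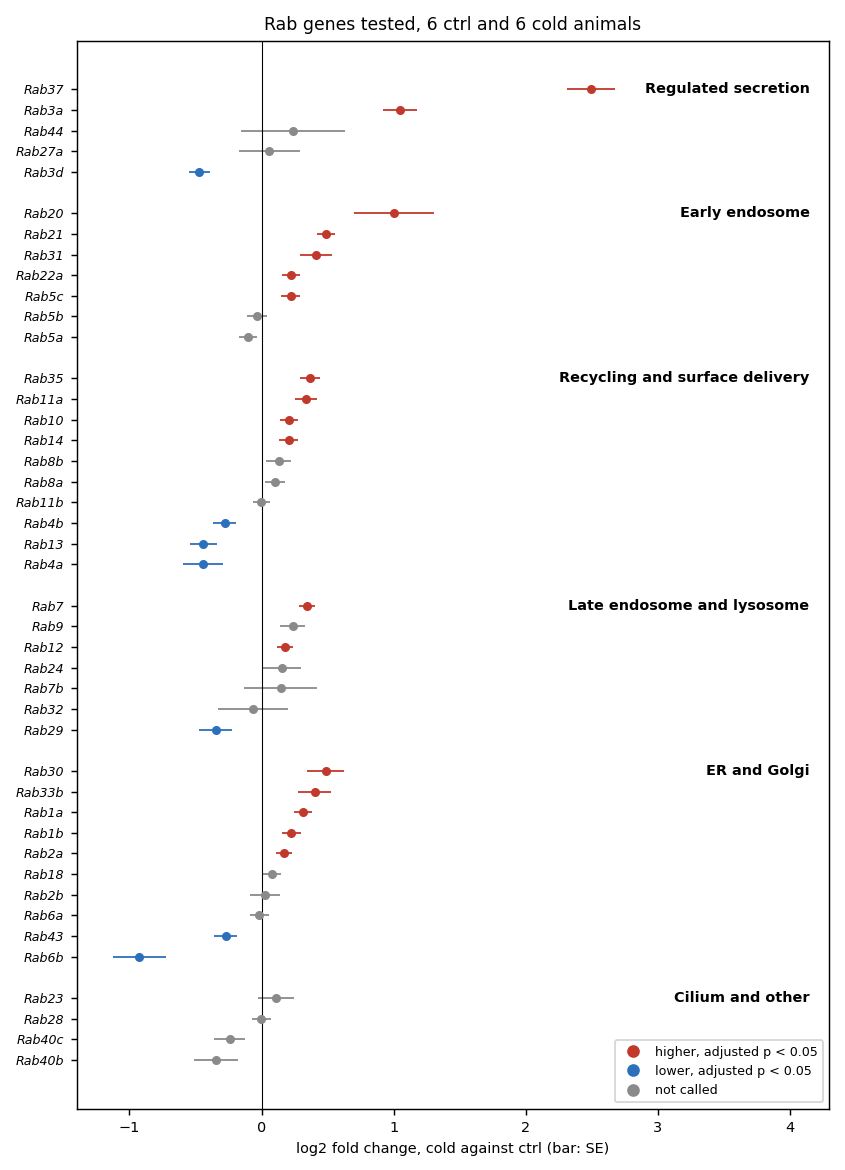
Log2 fold change of cold against ctrl with its standard error for the 43 Rab genes tested, ordered within groups by role. Rab37 (2.49) lies far right of every other member, and Rab6b (-0.93) lies farthest left.

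These counts rest on many small differences and moved with the libraries used. Without ctrl mouse 2 and the cold animal highest in muscle markers (mouse 15), 14 of the 25 calls remained, 11 higher and 3 lower, and those lost were Rab10, Rab12, Rab14, Rab22a, Rab29, Rab2a, Rab31, Rab33b, Rab43, Rab4a and Rab4b. With no filter on low values 15 of the 25 calls remained, and 4 members remained lower without ctrl mouse 2, cold mouse 7 or cold mouse 12 alone.

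Rabs of regulated secretion govern the docking and release of stored vesicles. They held the members with the widest differences in each direction among those whose groups did not overlap. Of 9 members 5 were tested, Rab37 and Rab3a were higher, Rab3d fell, and Rab27a and Rab44 did not pass the test. Calls made up 60% of the tested members, beside 31.6% of all genes, and include Rab37 and Rab3a, which led the choice.

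Rab37 lies at chr11:115091431-115162236 (GRCm38) and encodes a Rab first studied on the secretory granules of mast cells. Its counts in ctrl were 0.718 CPM at the lowest, 1.10 at the median and 1.46 at the highest, and in cold 4.20, 6.43 and 7.30 CPM. Every cold animal was above every ctrl animal, and the lowest cold value belonged to mouse 16. The log2 fold change was 2.49 ± 0.18 (SE), a 5.63-fold higher level in cold. The gene is rare in this tissue: it rested on 11 to 30 reads per ctrl library and 72 to 184 reads per cold library. Per kilobase of transcript it moved from rank 43 of the 58 members in ctrl to rank 32 in cold.

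Rab3a, at chr8:70754679-70758677, encodes the Rab of synaptic vesicles, which also acts on the granules of endocrine cells. Its ctrl values were 10.97, 17.1 and 19.1 CPM at the lowest, median and highest, and its cold values 28.5, 33.2 and 35.3 CPM. The groups lay far apart, with ctrl mice 6 and 10 (10.97 and 11.9 CPM) below the other 4 ctrl animals. The log2 fold change was 1.05 ± 0.13 (SE), or 2.07-fold. On a log2(CPM + 0.5) scale the difference was 1.03 among animals with numbers under 8 (3 ctrl and 2 cold) and 1.02 among those over 8. For Rab37 it was 2.00 and 2.12. Every cold animal exceeded every ctrl animal for both genes, so the same direction in each part was assured and these values only describe size. Rab3a overlaps Mpv17l2 on the opposite strand, and no source here states whether the counting used strand; Mpv17l2 stood at 39.7 ± 4.27 CPM (SD, n = 6) in ctrl and 42.6 ± 5.84 CPM (SD, n = 6) in cold. Cd300lf, opposite Rab37, stood at 0.601 ± 0.137 CPM (SD, n = 6) and 0.636 ± 0.294 CPM (SD, n = 6).

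Rab3d, at chr9:21907491-21918192, is the close paralog of Rab3a known from the granules of exocrine cells. Counts ran from 35.6 to 43.1 CPM in ctrl with a median of 37.6, and from 23.9 to 30.97 CPM in cold with a median of 28.6. All cold animals lay below all ctrl animals. Rab3d fell by 0.47 ± 0.08 (SE) on the log2 scale (adjusted p = 0.000274). The sister genes Rab3b and Rab3c were too rare to test, with group means of 0.0362 to 0.187 CPM.

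Since Rab3a and Rab3d differed in opposite directions, their balance was read per kilobase of transcript. Rab3a made up 46.5% to 57.8% of the summed Rab3 level in ctrl, with a median of 53.4%, and 73.8% to 78.7% in cold, with a median of 76.0%. The shares of the groups did not overlap, which follows from the separate ranges of Rab3a and Rab3d and is no further result. Rab3a is among the genes whose values led the choice. In ctrl the levels of Rab3a and Rab3d were close, at 12.1 ± 2.78 and 10.5 ± 0.942 CPM per kb (SD, n = 6), while in cold they were 24.3 ± 2.07 and 7.46 ± 0.770 CPM per kb (SD, n = 6).

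**Figure D2:**
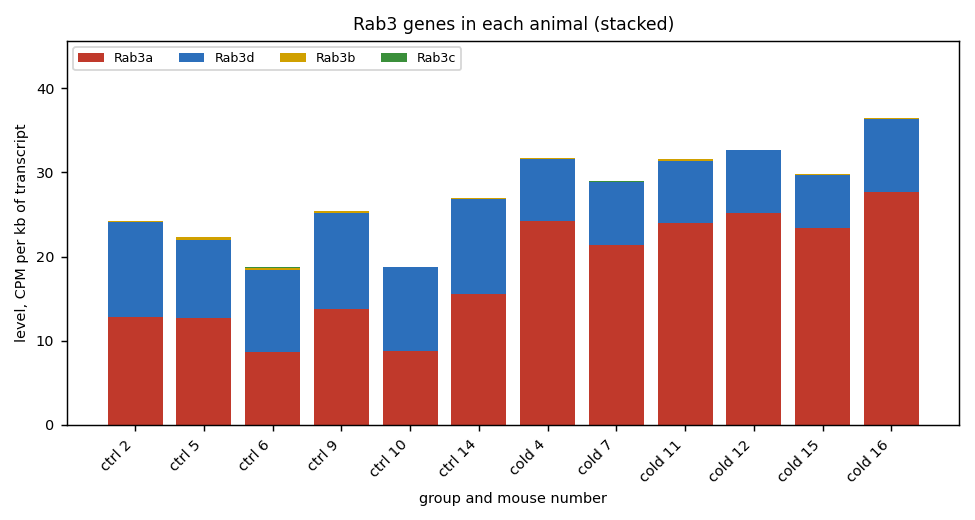
Level of Rab3a, Rab3d, Rab3b and Rab3c in CPM per kb of transcript, stacked for each of the 12 animals. Rab3a takes 73.8% or more of the bar in every cold animal and 57.8% or less in every ctrl animal.

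Among the low members of the group, Rab27a, which docks granules and melanosomes, had 1.603 ± 0.347 CPM (SD, n = 6) in ctrl and 1.68 ± 0.509 CPM (SD, n = 6) in cold (adjusted p = 0.876). Rab44, a long Rab with an added amino-terminal part, had 0.615 ± 0.401 and 0.731 ± 0.223 CPM (SD, n = 6; adjusted p = 0.697). Rab26 and Rab27b were under the filter. The group as a whole was rare, the lowest of the role groups in ctrl and above only the cilium group in cold. Its summed level was 24.2 ± 3.26 CPM per kb (SD, n = 6) in ctrl and 35.9 ± 2.38 CPM per kb (SD, n = 6) in cold, or 2.37% and 3.11% of the level of the whole family. The higher sum rests on Rab3a and Rab37, whose values led the choice. Their means went from 12.1 to 24.3 and from 0.512 to 2.88 CPM per kb, while that of Rab3d went from 10.5 to 7.46 CPM per kb.

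Cells that store granules were read beside these values. Of 9 neuron markers 1 was abundant enough to test, Syt1 was at 0 in all 12 libraries, and the list summed to 3.99 to 7.52 CPM in ctrl and 4.08 to 7.53 CPM in cold, so nerve markers were low in both groups. The 7 mast cell markers summed to 6.93 to 34.4 CPM in ctrl and 3.94 to 7.21 CPM in cold, and most of that sum was Kit, the only gene of the list abundant enough to test. Kit stood at 17.2 ± 10.2 CPM (SD, n = 6) in ctrl and 3.68 ± 0.848 CPM (SD, n = 6) in cold (adjusted p = 0.00124). The rarer granule protease genes had higher means in cold, untested and with overlapping groups: Tpsb2 had 0.278 ± 0.300 and 0.631 ± 0.603 CPM, Cma1 0.154 ± 0.180 and 0.360 ± 0.513 CPM, Cpa3 0.0914 ± 0.129 and 0.181 ± 0.150 CPM, and Mcpt4 0.232 ± 0.175 and 0.354 ± 0.299 CPM (SD, n = 6). Fcer1a and Ms4a2, receptor genes that define mast cells, averaged 0.0454 CPM or less in either group. Neutrophil and platelet markers summed to 3.59 to 6.49 CPM in ctrl and 6.03 to 14.6 CPM in cold, with 2 of 6 tested, both of them higher, and Ly6g at 0. The part of these cells in the Rab37 and Rab3a values was not tested.

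**Figure D3:**
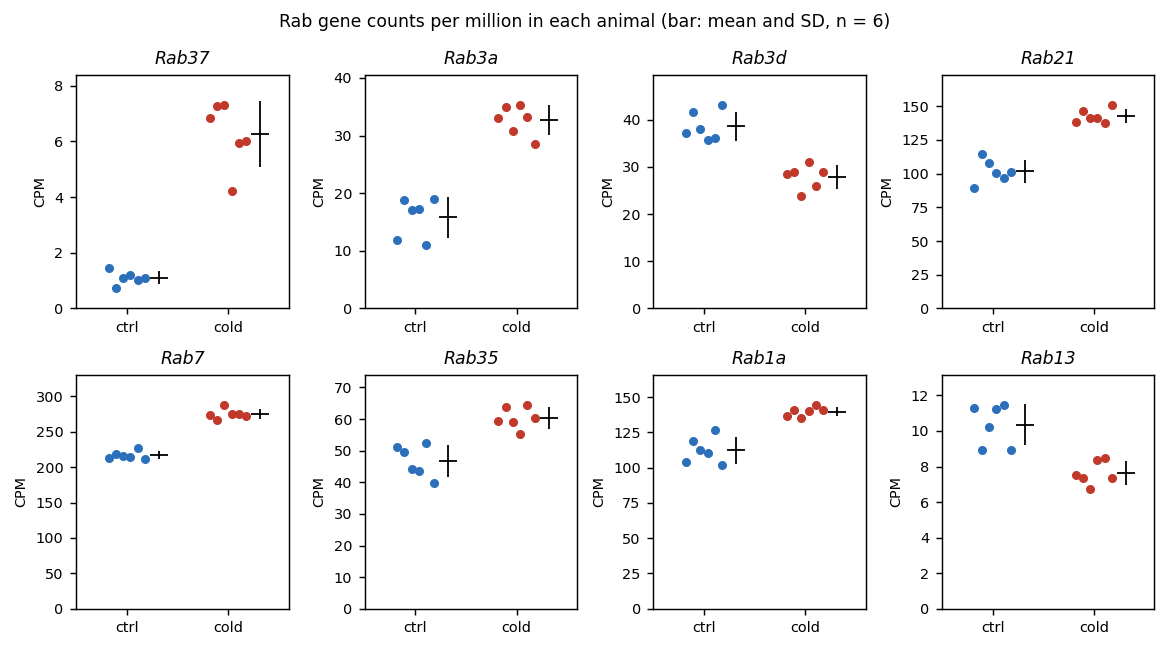
CPM of 8 Rab genes in each ctrl (blue) and cold (red) animal, with the mean and SD of 6 animals beside the points. For each of these genes the points of the groups do not overlap; Rab3d and Rab13 are lower in cold and the other 6 are higher.

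Early endosome Rabs receive what the cell has taken up. All 7 were tested, and 5 rose (Rab20, Rab21, Rab22a, Rab31 and Rab5c) and none fell, while Rab5a and Rab5b did not pass the test. The calls were 71.4% of this small group, beside 58.1% of the tested members of the family and 31.6% of all genes. Their summed level was 190 ± 3.77 CPM per kb (SD, n = 6) in ctrl and 215 ± 10.3 CPM per kb (SD, n = 6) in cold. The ranges did not overlap (185 to 195 and 198 to 227), nor did those of regulated secretion, the late endosome group or the ER and Golgi group. As a share of the family, the early endosome sum was 18.6% in ctrl and 18.7% in cold.

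Rab21, at chr10:115287084-115315594, acts on early endosomes and in the traffic of integrins. Its ctrl counts were 89.6, 101 and 114 CPM at the lowest, median and highest, and its cold counts 138, 142 and 151 CPM. The groups did not overlap, and Rab21 rose by 0.49 ± 0.07 (SE) on the log2 scale (adjusted p = 4.74e-05). Rab22a, at chr2:173659760-173707343, which guides cargo from early to recycling endosomes, had 49.2 to 58.3 CPM in ctrl and 59.9 to 72.6 CPM in cold. Its rise of 0.23 ± 0.07 (SE; adjusted p = 0.0182) was no longer called without ctrl mouse 2 and cold mouse 15 (adjusted p = 0.0583).

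The Rab5 genes encode the proteins that fuse early endosomes with each other. Rab5c, at chr11:100715009-100738215, was the most abundant early endosome Rab, with 97.0 ± 2.52 CPM per kb (SD, n = 6) in ctrl and 113 ± 9.63 CPM per kb (SD, n = 6) in cold. It rose by 0.22 ± 0.07 (SE; adjusted p = 0.0265) with overlapping groups, and its adjusted p was 0.051 without ctrl mouse 6 and 0.0542 without cold mouse 11. Its sisters Rab5a (52.4 ± 3.09 and 48.8 ± 2.66 CPM, SD, n = 6; adjusted p = 0.259) and Rab5b (96.0 ± 6.22 and 93.7 ± 9.26 CPM, SD, n = 6; adjusted p = 0.776) did not pass the test. Rab20, a phagosome Rab named here after its values were seen, ran from 0.855 to 2.96 CPM in ctrl and from 1.69 to 4.43 CPM in cold. It rose by 1.00 ± 0.30 (SE) on the log2 scale (adjusted p = 0.0186), so a 2-fold difference in a rare gene with overlapping groups.

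Recycling and surface delivery Rabs return membrane to the cell surface or carry new membrane there. Of 13 members 10 were tested: Rab35, Rab11a, Rab10 and Rab14 rose, Rab13, Rab4a and Rab4b fell, and Rab8a, Rab8b and Rab11b did not pass the test. Calls made up 70% of those tested, beside 31.6% of all genes. Rab14, which sorts cargo between endosomes and the Golgi, had 113 ± 11.1 and 130.1 ± 5.31 CPM (SD, n = 6; adjusted p = 0.0369) and lost its call in 10 of the 12 fits that left out 1 animal, the exceptions being ctrl mouse 14 and cold mouse 4 (adjusted p up to 0.0798). The summed level of the group was 242 ± 9.52 CPM per kb (SD, n = 6) in ctrl and 259 ± 8.86 CPM per kb (SD, n = 6) in cold, with ranges that overlapped slightly (225 to 251 and 249.8 to 275).

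Rab35, at chr5:115631908-115647736, serves rapid recycling at the plasma membrane. It had 39.9, 46.9 and 52.4 CPM at the lowest, median and highest in ctrl, and 55.2, 59.8 and 64.3 CPM in cold. Every cold animal was above the ctrl range, and Rab35 rose by 0.37 ± 0.08 (SE; adjusted p = 0.00162). Rab13, at chr3:90213695-90226385, known from cell junctions, had 8.95, 10.7 and 11.4 CPM in ctrl and 6.73, 7.44 and 8.50 CPM in cold. It fell by 0.44 ± 0.10 (SE) on the log2 scale (adjusted p = 0.00344), and its groups did not overlap.

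Rab11b, at chr17:33742484-33760530, a Rab of recycling endosomes, was the most abundant of the group per kilobase and nearly level, at 101 ± 5.97 CPM (SD, n = 6) in ctrl and 101 ± 4.32 CPM (SD, n = 6) in cold. Its log2 fold change was -0.00 ± 0.06 (SE; adjusted p = 0.982). The sister gene Rab11a had 39.98 ± 3.88 and 50.5 ± 4.48 CPM (SD, n = 6) and rose by 0.34 ± 0.08 (SE; adjusted p = 0.00469); the difference between the sisters was not tested. Rab10, the Rab that carries GLUT4 vesicles to the surface of fat cells, had 130 ± 8.42 and 150.2 ± 9.43 CPM (SD, n = 6). Its rise of 0.21 ± 0.07 (SE; adjusted p = 0.028) lost the call without ctrl mouse 2, 5, 6 or 10 or cold mouse 12 or 15 (adjusted p up to 0.0702). Rab4a and Rab4b, which recycle directly from early endosomes, fell by 0.45 ± 0.15 (SE; adjusted p = 0.0322) and by 0.28 ± 0.09 (SE; adjusted p = 0.0201). With scaling by library totals in place of TMM neither was called (adjusted p = 0.0888 and 0.128), and Rab4a also lost its call without ctrl mouse 2, 10 or 14 or cold mouse 7, 11 or 12 (adjusted p up to 0.078). Rab10, Rab11a, Rab14, Rab4a and Rab4b were named after their values were seen.

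Late endosome and lysosome Rabs lead cargo to degradation. Of 9 members 7 were tested: Rab7 and Rab12 rose, Rab29 fell, and Rab9, Rab24, Rab32 and Rab7b did not pass the test. Calls made up 42.9% of those tested, beside 31.6% of all genes. Rab7, at chr6:87999106-88045270, directs fusion of late endosomes and autophagosomes with lysosomes. Its counts were 211, 215 and 227 CPM at the lowest, median and highest in ctrl and 267, 274 and 287 CPM in cold. The spread within each group was small beside the gap between them, and Rab7 rose by 0.34 ± 0.06 (SE; adjusted p = 0.000457). At 114 ± 3.04 CPM per kb (SD, n = 6) in ctrl and 144 ± 6.45 CPM per kb (SD, n = 6) in cold it ranked second in the family in both groups. It was the largest part of this group's summed level, which was 221 ± 9.85 CPM per kb (SD, n = 6) in ctrl and 264 ± 12.3 CPM per kb (SD, n = 6) in cold.

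Rab9, which returns cargo from late endosomes to the Golgi, was close to the threshold, with 51.4 ± 8.28 CPM (SD, n = 6) in ctrl and 60.6 ± 3.99 CPM (SD, n = 6) in cold (log2 fold change 0.24 ± 0.09, SE; adjusted p = 0.0677). It passed without ctrl mouse 6 (adjusted p = 0.00506), with scaling by library totals (adjusted p = 0.0125), with the muscle markers as a covariate (adjusted p = 0.027) and with a term for the mouse number (adjusted p = 0.0243). Rab29, a Rab bound by the kinase LRRK2, fell by 0.35 ± 0.13 (SE, adjusted p = 0.0443) and lost its call when any of 9 animals was left out (adjusted p up to 0.102). Its call was also lost with library totals, no filter, the muscle markers as a covariate and the mouse number term (adjusted p up to 0.1285). Rab12 rose by 0.18 ± 0.06 (SE; adjusted p = 0.039) and lost its call without ctrl mouse 5, 9, 10 or 14 or cold mouse 11, 12, 15 or 16 (adjusted p up to 0.0882). Rab9, Rab12 and Rab29 were named after their values were seen.

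Rabs of the endoplasmic reticulum and Golgi serve the early secretory route. Of 15 members 10 were tested: Rab1a, Rab1b, Rab2a, Rab30 and Rab33b rose, Rab6b and Rab43 fell, and Rab18, Rab2b and Rab6a did not pass the test. Calls made up 70% of those tested, beside 31.6% of all genes. This was the most abundant group, with 30.5% of the family's summed level in ctrl and 30.1% in cold. Its sum was 311 ± 7.69 CPM per kb (SD, n = 6) in ctrl and 346 ± 10.4 CPM per kb (SD, n = 6) in cold, without overlap. Rab43 fell by 0.27 ± 0.09 (SE; adjusted p = 0.0256) and lost its call with library totals (adjusted p = 0.146), with no filter (adjusted p = 0.0983) and without ctrl mouse 2 or 9 or cold mouse 7, 12 or 15 (adjusted p up to 0.0663). Rab18, known from the surface of lipid droplets and like Rab43 named after the values were seen, stood at 79.5 ± 6.84 and 84.0 ± 4.57 CPM (SD, n = 6; adjusted p = 0.433).

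Rab1a and Rab1b carry vesicles from the endoplasmic reticulum to the Golgi. Rab1b, at chr19:5099205-5107072, was the most abundant Rab in both groups, at 127 ± 3.03 CPM per kb (SD, n = 6) in ctrl and 149 ± 13.3 CPM per kb (SD, n = 6) in cold. Its counts were 231 to 246 CPM in ctrl and 251 to 330 CPM in cold, without overlap, and it rose by 0.23 ± 0.07 (SE; adjusted p = 0.026); without ctrl mouse 14 the adjusted p was 0.05, and with no filter on low values 0.0696. The cold value of mouse 4, 330 CPM, stood above the other 5 cold animals (251 to 280 CPM). Rab1a, at chr11:20201432-20226856, had 102, 111 and 127 CPM at the lowest, median and highest in ctrl and 135, 140.4 and 144 CPM in cold. All cold animals exceeded all ctrl animals, with a rise of 0.31 ± 0.07 (SE; adjusted p = 0.00193). Rab2a, at chr4:8535644-8607778, which acts on the same route, had 80.0 to 87.1 CPM in ctrl and 89.1 to 100.3 CPM in cold. Its rise of 0.17 ± 0.06 (SE; adjusted p = 0.0423) was the smallest one called and was lost without ctrl mouse 2, 5, 9, 10 or 14 or cold mouse 7, 11, 12, 15 or 16 (adjusted p up to 0.0783).

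Rab6b, a retrograde Golgi Rab best known from neurons and named here after its values were seen, had the deepest fall of the family. It ran from 31.5 to 70.3 CPM in ctrl with a median of 51.6, and from 17.5 to 33.1 CPM in cold with a median of 27.96. The wide ctrl group overlapped the cold group at its lower end, and Rab6b fell by 0.93 ± 0.20 (SE) on the log2 scale (adjusted p = 0.00315). Leaving out each animal in turn gave -1.04 to -0.82. Its ubiquitous sister Rab6a stood at 68.8 ± 6.08 and 68.0 ± 3.40 CPM (SD, n = 6; adjusted p = 0.887). Rab6b accordingly supplied 31.1% ± 5.45 (SD, n = 6) of the summed Rab6a and Rab6b level per kilobase in ctrl and 19.7% ± 3.63 (SD, n = 6) in cold.

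The 4 tested Rabs of the cilium and other roles did not pass the test, which 31.6% of all genes passed. Rab28, a ciliary Rab at chr5:41624976-41708157 and the most abundant of them, had 29.99 ± 1.43 CPM (SD, n = 6) in ctrl and 29.95 ± 2.31 CPM (SD, n = 6) in cold (log2 fold change -0.00 ± 0.07, SE; adjusted p = 0.993). The others were Rab23, which acts in Hedgehog signalling, and Rab40b and Rab40c, which join ubiquitin ligases, with log2 fold changes of 0.11, -0.35 and -0.24.

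Levels within the family spanned more than the differences between groups. Rab1b, Rab7, Rab5c, Rab11b and Rab18 held ranks 1 to 5 per kilobase in ctrl and in cold. The neighbours Rab11b (62.8 ± 4.68 CPM per kb, SD, n = 6) and Rab18 (55.3 ± 4.13 CPM per kb, SD, n = 6) lay close beside their spread in ctrl. Summed over all members, the family reached 983 to 1047 CPM per kb in ctrl, with a mean of 1021 ± 22.1 (SD, n = 6), and 1113 to 1191 CPM per kb in cold, with a mean of 1151 ± 31.9 (SD, n = 6). The sums did not overlap between groups and were not tested. Markers of other cells that were called beside them were fibroblast Col1a1, Lum and Col3a1, all lower, with the 6 fibroblast markers summing to 220.5 to 380.4 CPM in ctrl and 172.9 to 256 CPM in cold. Of 6 endothelial markers Pecam1 was higher and Tie1 lower (sums of 721 to 978 and 781 to 947 CPM), and of 6 macrophage markers Cd68 was higher (sums of 37.4 to 66.2 and 43.3 to 65.6 CPM). The part of these cells in the Rab levels was not tested.

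**Figure D4:**
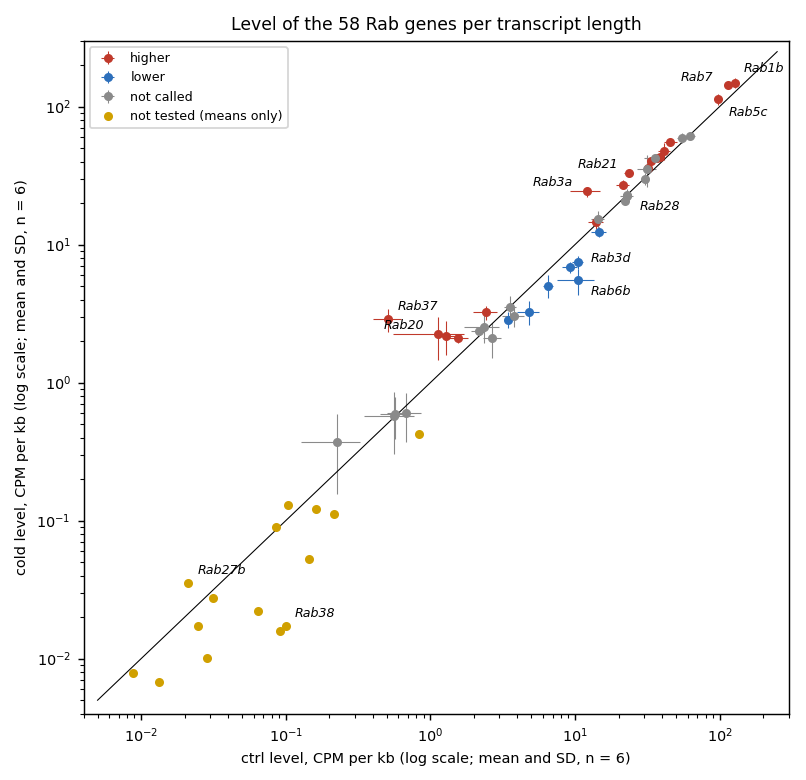
Mean level in cold against mean level in ctrl, in CPM per kb of transcript on log axes, for the 58 Rab genes; bars are the SD of 6 animals and the line marks equal levels. Rab1b and Rab7 lie at the top right, and Rab37 and Rab3a lie farthest above the line among the tested genes.

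The 15 members that were too rare to test had group means of at most 0.631 CPM. They were Rab3b, Rab3c, Rab26 and Rab27b of regulated secretion, Rab15, Rab17 and Rab25 of recycling, Rab38 and Rab9b of the late route, Rab19, Rab33a, Rab36, Rab39 and Rab39b of the early secretory route, and Rab42. Rab42 had 73 reads over the 6 ctrl libraries and 39 over the 6 cold libraries, and Rab15 had 31 and 55. Epithelial Rab25 had 4 and 3 reads and Rab38, a melanosome Rab, had 20 and 4. At this depth no difference in these genes was tested.

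Promoter sequence was read for the members with an entry in the RefSeq table of GRCm38.p6, which held 58 start sites of 47 members, each with 250 bases before and 50 after the start. No entry was matched for 11 members: Rab18, Rab26, Rab27b, Rab2a, Rab30, Rab36, Rab37, Rab38, Rab44, Rab4a and Rab7b. The bases before the start are shown for Rab3a, at the more upstream of its 2 start sites, and for Rab21, as examples of members that were higher in cold. Capitals mark matches to the short form of the cAMP response element, TGACG on either strand, and to the E-box CACGTG.

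Rab3a, chr8:70754453-70754702, plus strand: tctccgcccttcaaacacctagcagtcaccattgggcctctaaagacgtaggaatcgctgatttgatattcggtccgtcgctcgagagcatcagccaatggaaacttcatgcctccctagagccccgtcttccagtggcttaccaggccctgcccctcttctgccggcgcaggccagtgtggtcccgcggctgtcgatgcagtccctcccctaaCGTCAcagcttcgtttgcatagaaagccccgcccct
Rab21, chr10:115315592-115315841, minus strand: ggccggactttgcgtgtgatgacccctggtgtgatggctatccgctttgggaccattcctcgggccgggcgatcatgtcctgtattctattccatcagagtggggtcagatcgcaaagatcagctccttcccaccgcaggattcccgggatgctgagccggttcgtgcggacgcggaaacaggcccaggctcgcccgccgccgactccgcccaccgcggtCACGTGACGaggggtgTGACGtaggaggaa

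In Rab3a the short form lies at -36 to -32 from the start and again at 12 to 16 after it, beyond the bases shown, both on the strand opposite the gene. In Rab21 short forms lie at -26 to -22 and -14 to -10, the former overlapping an E-box at -30 to -25. The short form did not follow direction among the named members. Rab7 and Rab5c, higher in cold, held it, but so did Rab13 and Rab3d, which were lower, and Rab28 and Rab11b, which were not called. It was absent from the promoters of Rab1a, Rab1b, Rab22a and Rab35, all higher, and from the other start site of Rab3a. A link between the site and the changes was not tested. Searched on both strands over the whole windows, TGACG was present in 44.8% of the members' promoters, 23.6% of promoters of all protein-coding genes and 20.8% of all promoters. The GC box GGGCGG was present in 69.0% of the members' promoters, 46.2% of the protein-coding ones and 35.7% of all. CACGTG was found in 10.3%, 7.84% and 7.15%, the full element TGACGTCA in 3.45%, 2.23% and 1.79%, and the estrogen-related receptor site AAGGTCA in 0%, 4.08% and 4.72%. These are matches of letters, and start sites of 1 gene share sequence.

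Transcripts were then read to see which product carried a gene's difference. Of 246 member transcripts 86 were tested, in 42 genes; 13 were higher and 3 lower in cold, against 10.3% of all 30345 transcripts called. The 16 calls lay in 15 genes, and 15 of them were protein coding. Transcripts of Rab37 and Rab3a, whose values led the choice, were not set apart in these counts. Rab37-201, the main coding transcript of Rab37, supplied 88.3% ± 10.4 (SD, n = 6) of that gene's level per kilobase in ctrl and 97.7% ± 3.75 (SD, n = 6) in cold, with 0.994 ± 0.243 and 6.31 ± 1.16 CPM (SD, n = 6). Rab3a was carried by Rab3a-201, at 10.3 ± 3.36 and 23.0 ± 2.96 CPM (SD, n = 6), and Rab3a-204, at 3.65 ± 0.935 and 7.99 ± 3.49 CPM (SD, n = 6). Rab3a-201 held 62.0% of the gene's level in ctrl and 68.2% in cold. The lower transcripts were Rab3d-201, Rab6b-201 and Rab2b-208, a retained-intron form that fell by 1.57 ± 0.42 (SE) on the log2 scale (adjusted p = 0.0323) at a ctrl mean of 1.01 CPM. The shares of transcripts within a gene could be tested for 25 members, with no call by edgeR's F test per gene (Rab13 alone was under 0.05 unadjusted; its adjusted p was 0.426) and none by its Simes test, beside 1.45% of 7233 genes. Rab3a and Rab37 enter these shares only as a description.

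The proteins that drive the Rab cycle were counted from lists of 136 genes, of which 129 were tested. In cold 27 were higher and 14 lower, so 31.8% were called, beside 31.6% of all genes. Leaving out each animal gave 22 to 38 higher and 12 to 15 lower partners, with 38 without cold mouse 4.

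Exchange factors switch Rabs on. Of 38 tested, 4 rose and 4 fell, and without cold mouse 4 the number higher was 8. The calls were 21.1% of the list, beside 31.6% of all genes. Rabgef1, the exchange factor of Rab5 and Rab21 also known as Rabex-5, rose from 22.9 ± 1.61 to 36.4 ± 2.90 CPM (SD, n = 6; log2 fold change 0.67 ± 0.08, SE; adjusted p = 6.85e-06), with no overlap. Als2cl, related to the Rab5 exchange factor alsin, fell from 50.5 ± 6.71 to 38.8 ± 4.51 CPM (SD, n = 6; adjusted p = 0.00707).

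GTPase-activating proteins switch Rabs off. Of 38 tested, 11 rose and 5 fell, so 42.1% were called, beside 31.6% of all genes. With each animal left out, 8 to 16 were higher and 5 to 6 lower. Tbc1d8 rose from 8.65 ± 1.17 to 19.0 ± 2.52 CPM (SD, n = 6; log2 fold change 1.14 ± 0.11, SE; adjusted p = 1.64e-06). Tbc1d24 fell from 16.6 ± 2.69 to 9.77 ± 1.98 CPM (SD, n = 6; log2 fold change -0.76 ± 0.14, SE; adjusted p = 0.000567). Tbc1d4 and Tbc1d1, the insulin-regulated proteins that act on Rab10 in GLUT4 delivery and were named after their values were seen, rose from 39.6 ± 5.57 to 52.0 ± 9.16 CPM (SD, n = 6; adjusted p = 0.0217) and from 13.8 ± 1.32 to 16.8 ± 2.20 CPM (SD, n = 6; adjusted p = 0.0405).

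Of 6 genes for dissociation inhibitors, escort proteins and the prenyltransferase, 2 rose and 1 fell (50% called, beside 31.6% of all genes). Rabac1, which binds prenylated Rabs, fell from 103.4 ± 10.2 to 84.1 ± 13.8 CPM (SD, n = 6, adjusted p = 0.0326) with overlapping groups. It lost its call without ctrl mouse 2, 5, 6 or 10 or cold mouse 7, 12, 15 or 16 (adjusted p up to 0.0824). The call was also lost with library totals (adjusted p = 0.128) and with the muscle marker covariate (adjusted p = 0.0592). Rabggtb, the beta subunit of the enzyme that attaches the lipid anchor, rose from 42.95 ± 6.17 to 59.1 ± 9.78 CPM (SD, n = 6; adjusted p = 0.00452) with overlapping groups.

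Secretory effectors bind the Rabs of regulated secretion. Of 17 listed, 10 were tested, 3 rose and 1 fell (40% called, beside 31.6% of all genes). Myrip, which links Rab27 granules to myosin, had 2.47 to 5.26 CPM in ctrl and 7.98 to 13.7 CPM in cold and rose by 1.74 ± 0.20 (SE) on the log2 scale (adjusted p = 6.47e-06). Mlph, the melanophilin of melanosome transport, rose by 1.24 ± 0.21 (SE; adjusted p = 0.000305), and Sytl1, a Rab27-binding synaptotagmin-like protein, fell by 1.42 ± 0.20 (SE; adjusted p = 5.82e-05). Mlph and Sytl1 were named after their values were seen. The groups did not overlap for these 3 genes.

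Of 21 endosomal and lysosomal effectors, 6 rose and 2 fell (38.1% called, beside 31.6% of all genes). Ehbp1l1, an effector of Rab8 and Rab10, rose from 167 ± 18.9 to 249.4 ± 26.1 CPM (SD, n = 6; adjusted p = 0.000165), and Rabep2, a Rab5 effector, fell from 13.7 ± 1.46 to 8.26 ± 1.63 CPM (SD, n = 6; adjusted p = 0.000342). Of 13 Golgi effectors 1 rose and 1 fell (15.4% called). The rise was Golga5, a Golgi tether, by 0.20 ± 0.07 (SE, adjusted p = 0.0455). It was not called when any ctrl animal or cold mouse 11, 12 or 16 was left out (adjusted p up to 0.103). The call was also lost with limma-voom, no filter, the stricter filter and the muscle marker covariate (adjusted p up to 0.104). The fall was Bicdl1, an adaptor of Rab6 vesicles, by 0.77 ± 0.15 (SE) on the log2 scale (adjusted p = 0.00071). None of the 3 Rab kinases and phosphatases listed passed the test.

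**Figure D5:**
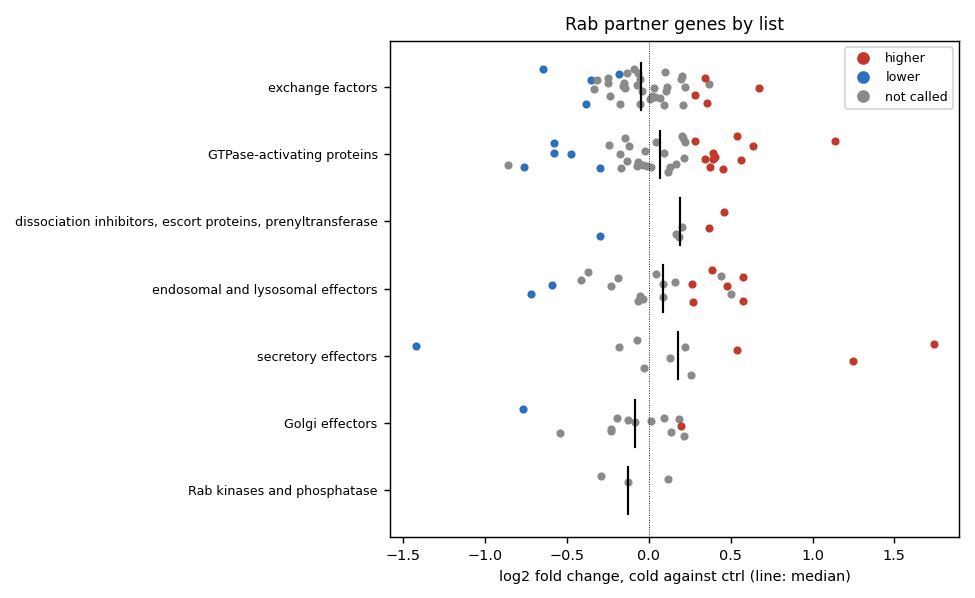
Log2 fold change of cold against ctrl for the 129 tested partner genes in 7 lists; each point is 1 gene and the vertical lines are list medians. Myrip (1.74) lies farthest right and Sytl1 (-1.42) farthest left, both among the secretory effectors.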

How the data were processed

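Each deposited file holds Salmon output for 1 animal, with estimated counts per transcript (the NumReads column, not normalized) and lengths per the file headers; bcl2fastq, cutadapt, Salmon and GRCm38 are named in the submitters' processing notes, and versions, annotation and strand setting are not given in the sources used here. Of 140658 transcripts, 140137 matched GENCODE M21 by identifier without version. The deposited estimated counts were summed per gene and rounded. Genes with enough counts (filterByExpr, minimum count 10) were fitted with edgeR 4.0.16 (R 4.3.3): TMM scaling, robust quasi-likelihood fit on the group label, two-sided, Benjamini-Hochberg adjustment over all genes tested, threshold 0.05. Counts are TMM-scaled CPM; levels between genes are CPM per kb of annotated transcript length. Transcripts had the same test, and shares within genes edgeR's diffSpliceDGE. Fits were tested on simulated data.

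Members and lists were chosen with earlier results of these data known, and 1 gene of the same name form and 1 partner gene are not reported here. Named were Rab37 and Rab3a, called members whose groups did not overlap, the most abundant member of each role, the called partners with the largest rise and fall in each list (mean log2 CPM of at least 2), and members under the filter; others are named after their values were seen. Mouse numbers differ between groups, so animals were not paired. Nothing in the labels says more about the animals' litters or days, and p-values judge the group difference against the spread between these animals. Alternatives were RLE factors, library totals, DESeq2 1.42.0, limma-voom (limma 3.58.1), no filter, a stricter filter (minimum count 50), a muscle marker covariate, each animal left out, and, added after seeing the data, a mouse number term.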

Additional observations from a re-analysis of the deposited data

Results flagged for a closer look

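In groups of 6 animals, 7 of 108 groups held an animal whose gap to its nearest neighbour exceeded the Dixon limit for the group's range, where chance gives about 1 in 20. Cold mouse 4 was the high animal for 4 genes: Rab1b at 329.9 CPM (others 251.1 to 280.2), Rab24 at 66.79 CPM (others 35.54 to 44.04), Rab9 at 68.15 CPM (others 57.1 to 61.13) and Rabggtb at 77.39 CPM (others 48.8 to 59.42). Ctrl mouse 14 was high for 2 genes: Rab14 at 134.6 CPM (others 103.2 to 112.1) and Rab40b at 5.682 CPM (others 4.173 to 4.691). Ctrl mouse 2, whose library stood apart, was low for Rab22a at 49.18 CPM (others 55.08 to 58.25).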

How the results depend on the processing

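No member or partner named changed direction with its call under any alternative run. RLE factors and DESeq2 kept all 25 member calls, limma-voom 24, the stricter filter 23, the muscle covariate 22, library totals 21 and no filter 15. Lost were Rab4a with limma-voom, Rab20 and Rab2a with the stricter filter, and Rab10, Rab14 and Rab29 with the muscle covariate. Library totals lost Rab29, Rab43, Rab4a and Rab4b. No filter lost Rab10, Rab12, Rab14, Rab1b, Rab29, Rab2a, Rab43, Rab4a, Rab4b and Rab5c. With library totals the median of all genes was 0.08. Lower members numbered 3 with library totals, 3 without the filter and 3 without ctrl mouse 2 and cold mouse 15, where 11 were higher. Lower partners numbered 9 with library totals, against 14. Leaving out each animal gave 14 to 18 higher and 4 to 7 lower members. The median member log2 fold change was 0.24 with library totals and 0.06 without the filter. Higher transcripts numbered 6 without ctrl mouse 2 and cold mouse 15, and 6 to 12 without each animal. Leaving aside Rab37 and Rab3a, the members that passed the threshold under every alternative run on genes were Rab3d, Rab21, Rab7, Rab35, Rab6b, Rab1a, Rab13, Rab11a and Rab30. The added mouse number term kept 24 of the 25 calls. No paired analysis was possible because the groups share no mouse number. Depth limits the 15 untested members and Rab37 in ctrl. The causes of these changes were not tested.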
